A study of Rattus norvegicus with 4 samples.

Results

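Microtubule-associated proteins bind the tubulin lattice and set how stable, how bundled and how well joined to actin the microtubules of a growing neuron are. The group described here holds 10 genes, chosen by symbol from the 18755 genes listed: the MAP2 and tau family (Map2, Mapt and Map4), the MAP1 pair (Map1a and Map1b), the doublecortin genes (Dcx and Dclk1), the stable-microtubule protein Map6, the spectraplakin Macf1 and the minus-end binder Camsap2. All 10 were found once each in every library. The libraries came from rat cortical cells (SD pups, embryonic day 16) grown for 24 h in Neurobasal with 2% B27 on a hydrogel, either SFMA alone or its forms N-SFMA, L-SFMA (also spelled L@SFMA in the labels) and NL-SFMA (also NL@SFMA). Every group is a mixed primary culture with the same medium and time, 100000 cells per well and 5 wells per hydrogel, but the sources used here do not say whether wells were pooled, or what N and L stand for. The study asks how an adhesion cue between cells, built into a gel, acts on growing neurons. Values of the 4 libraries are listed below with SFMA first, then N-SFMA, then L-SFMA, then NL-SFMA. There was 1 library per hydrogel, so no difference between hydrogels has a replicate check, and intervals below cover counting error only.

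As background, MAP2 is placed mainly in dendrites and cell bodies and tau mainly in axons, while MAP4 is also found in cells that are not neurons. MAP1B is the MAP1 protein of outgrowing axons and MAP1A is more typical of mature neurons. Doublecortin marks migrating and newly born neurons, and loss of human DCX disturbs cortical layering. MAP6 makes microtubules resistant to cold, MACF1 ties microtubules to actin, and CAMSAP2 holds the free minus ends of microtubules that are not attached to a centrosome.

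Every gene of the group had its lowest FPKM (reads per kilobase of gene model, scaled to library size) in SFMA. Of all 12394 genes tested, 5924, 6670 and 5633 were above SFMA in N-SFMA, L-SFMA and NL-SFMA. Of the 650 with a model over 8 kb, 572, 614 and 577 were. In the group, 6 of the 10 (Map1b, Macf1, Dcx, Map2, Camsap2 and Dclk1) were at least 2-fold higher in NL-SFMA than in SFMA, where 10.1% of all genes tested were. With the general trend over gene length removed, 3 of these 6 (Map1b, Map2 and Dcx) stayed past 2-fold, and Macf1 (0.48), Camsap2 (0.73) and Dclk1 (0.37) did not on the log2 scale. Map1b had the largest difference, with 55.4 FPKM in SFMA and 322 in NL-SFMA. Mapt, Map6, Map4 and Map1a were less than 2-fold above SFMA in the other 3 libraries, and of these differences those of Map1a, Map4 and Mapt in NL-SFMA and of Map4 in L-SFMA turn negative when that trend is removed, and that of Map6 in NL-SFMA when libraries are scaled to neuron markers.

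Promoter stretches are shown for 4 of the genes, to set the MAP1 relatives Map1b and Map1a side by side, whose differences from SFMA in NL-SFMA were 2.52 and 0.88 on the log2 scale, with Dcx and Camsap2 as members of other families. The sequences are RefSeq's (GRCr8), from listed promoters among which 7 of the 10 genes were matched. Mapt, Map4 and Map6 were not matched, and the stretches of Map2, Dclk1 and Macf1 were matched but are not shown. Each line gives the 250 bases before the listed start, 5′ to 3′ on the gene's strand. Capitals mark the letters of an E-box (CANNTG, bound by basic helix-loop-helix factors), a GC box (GGGCGG or its reverse complement CCGCCC) or TATAAA (or its reverse complement TTTATA).
Map1b (chr2:32644472-32644721, minus strand): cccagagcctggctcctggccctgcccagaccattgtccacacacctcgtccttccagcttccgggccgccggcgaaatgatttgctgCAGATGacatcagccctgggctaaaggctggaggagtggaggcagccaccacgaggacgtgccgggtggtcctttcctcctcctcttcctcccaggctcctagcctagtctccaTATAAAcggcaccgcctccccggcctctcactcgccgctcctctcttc
Map1a (chr3:128722445-128722694, plus strand): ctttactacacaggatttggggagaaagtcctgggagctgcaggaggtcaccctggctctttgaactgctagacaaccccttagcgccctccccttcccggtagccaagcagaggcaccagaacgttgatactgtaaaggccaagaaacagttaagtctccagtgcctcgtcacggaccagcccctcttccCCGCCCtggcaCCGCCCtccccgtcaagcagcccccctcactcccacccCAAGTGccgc
Dcx (chrX:112304162-112304411, minus strand): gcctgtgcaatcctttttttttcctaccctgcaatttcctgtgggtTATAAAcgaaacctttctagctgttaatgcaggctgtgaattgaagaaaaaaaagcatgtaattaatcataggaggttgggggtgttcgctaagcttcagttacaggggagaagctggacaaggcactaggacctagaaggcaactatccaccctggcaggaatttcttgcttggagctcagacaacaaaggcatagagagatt
Camsap2 (chr13:50354299-50354548, minus strand): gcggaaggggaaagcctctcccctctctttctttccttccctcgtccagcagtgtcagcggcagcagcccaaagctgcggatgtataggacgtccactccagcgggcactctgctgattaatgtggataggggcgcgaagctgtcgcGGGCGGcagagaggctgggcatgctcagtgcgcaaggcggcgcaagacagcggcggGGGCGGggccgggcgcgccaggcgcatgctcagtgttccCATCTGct
Map1b and Dcx each held 1 TATAAA, which stood in 12.9% of all 33469 listed promoters. Map1a and Camsap2 held 0, as did the matched stretches of Map2, Dclk1 and Macf1 that are not shown. The GC box was held by 30.5% of them, and Map1a and Camsap2 each had 2 matches. An E-box was held by 65.5%, and Map1b, Map1a and Camsap2 had 1 match each. The Dcx stretch had a GC content of 44.0% and 2 CpG, against 63.6% and 13 for Map1b and medians of 51.2% and 5 over all listed promoters. The listed starts of Map1b and Camsap2 are the 5′ ends of their annotated genes, whereas those of Map1a and Dcx lie 5788 and 66130 bases inside them. These matches describe the letters of the windows only.

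Summed read counts were between 14172205 (NL-SFMA) and 17553098 (SFMA). The 10 genes took 0.326% of the reads (95% Wilson interval 0.324 to 0.329), 0.701% (0.697 to 0.705), 0.743% (0.739 to 0.747) and 1.09% (1.09 to 1.10). Neuron markers that are not in the group were present throughout, with a geometric mean over 12 genes of 50.2, 65.9, 62.5 and 66.8 FPKM. Their sum, of which Tubb3 is the largest part, was 2772, 3674, 2919 and 2698 FPKM, and on the deposited scale, the one used here for single markers, 3 of the 12 had a log2 difference below 0 in NL-SFMA (Tubb3 -0.18, Rbfox3 -0.48 and Gap43 -0.071). The summed level of 9 radial glia markers was 1548, 695, 686 and 767 FPKM and that of 4 erythroid markers 545, 161, 90.7 and 69.6 FPKM. Vim was the largest part of the radial glia sum, at 1088, 535, 486 and 633 FPKM. The median log2 difference of these 9 markers from SFMA was -0.69 with N alone, -0.50 with L alone and -0.87 with both letters. The 5 microglia markers found summed to 21.2, 7.47, 14.8 and 5.62 FPKM, and C1qa had 8, 4, 17 and 0 reads. Astrocyte markers (6 genes) summed to 22.1, 13.7, 25.5 and 7.81 FPKM, those of the oligodendrocyte lineage (5 genes) to 15.1, 8.45, 9.47 and 6.28 FPKM. Apoe was the largest part of the astrocyte sum, at 12.8, 8.43, 17.7 and 2.86 FPKM. With L alone, Apoe (0.44) and Aldh1l1 (0.30) were above SFMA on the log2 scale. Gfap (-0.15), S100b (-0.14) and Gja1 (-0.41) were below it, and the median of the 5 astrocyte markers tested was -0.14. Interneuron markers (5 genes) summed to 113, 112, 114 and 74.3 FPKM and excitatory neuron markers (6 genes) to 462, 594, 652 and 586 FPKM. Endothelial markers never summed above 0.653 FPKM (4 genes) and fibroblast markers never above 2.45 FPKM (5 genes). In bulk RNA, a change in the share of a cell type and a change in RNA per cell cannot be told apart, and the part of these other cells in the results below was not tested. Mitochondrially encoded genes held 5.89% of the reads in NL-SFMA and 2.23% to 2.68% in the other libraries.

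**Figure D1:**
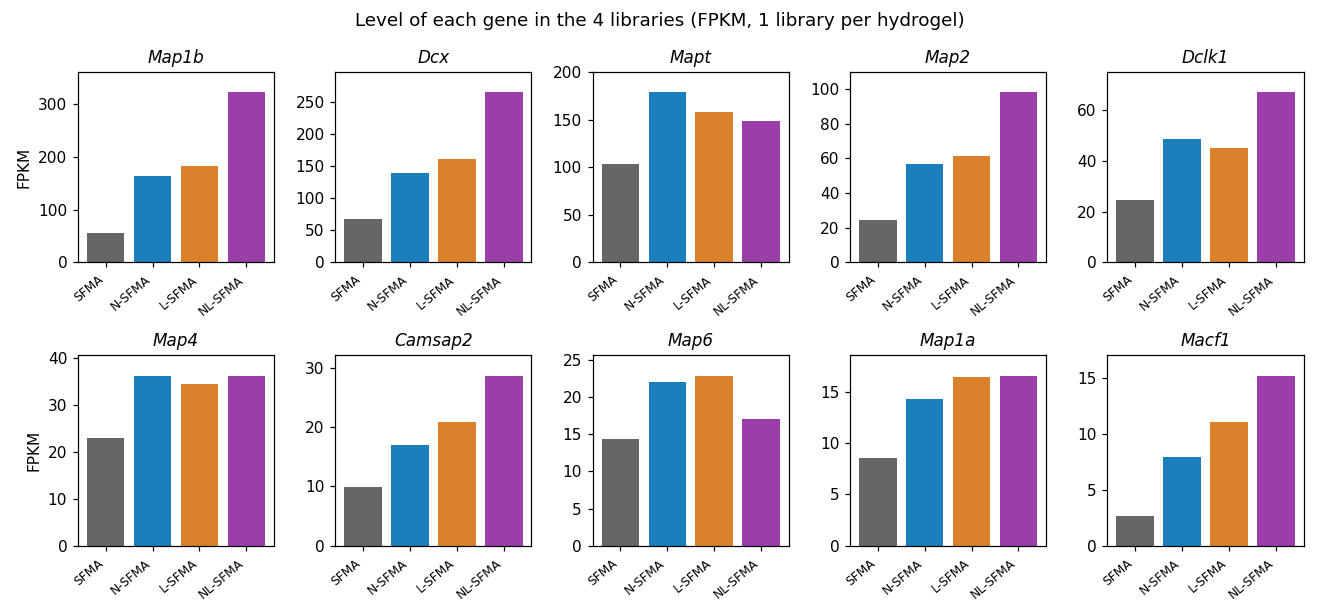
FPKM of each of the 10 genes (1 panel per gene, each with its own axis from 0) for each hydrogel, 1 library each, so without error bars. Map1b goes from 55.4 FPKM in SFMA to 322 in NL-SFMA, while Mapt is highest in N-SFMA (179) and Map6 in L-SFMA (22.9).

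Map1b encodes the MAP1 protein of extending axons. Its level was 55.4, 164, 183 and 322 FPKM over the 4 libraries, on 13215 to 62029 reads. It was the gene with rank 1470 by FPKM among all genes in SFMA and rank 99 in NL-SFMA. The fold against SFMA in CPM (reads of the gene relative to all reads counted) was 3.31 for L-SFMA (95% counting interval 3.24 to 3.37). On the log2(FPKM + 1) scale only 2 of the 12394 genes tested were further above SFMA in NL-SFMA. With the trend over gene length removed, Map1b was at percentile 96.8 of the genes tested there. Its relative Map1a was at 8.51, 14.2, 16.4 and 16.6 FPKM. L-SFMA and NL-SFMA were level for Map1a, at a CPM fold of 1.01 (0.957 to 1.07). The FPKM ratio of Map1b to Map1a was 6.51 (6.17 to 6.86), 11.5 (11.04 to 12.02), 11.2 (10.8 to 11.6) and 19.4 (18.7 to 20.2), so it was close to level between the single-letter libraries.

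Map2, the gene of the dendritic protein, was at 24.7, 56.5, 61.1 and 98.0 FPKM. The CPM fold against SFMA was 2.28 (2.19 to 2.38), 2.47 (2.37 to 2.57) and 3.96 (3.81 to 4.11). Mapt, which encodes tau, had the highest FPKM of the group in SFMA (103) and in N-SFMA (179), with 158 in L-SFMA and 148 in NL-SFMA. NL-SFMA was thus below N-SFMA for Mapt, by a CPM fold of 1.21 (1.18 to 1.23), although it was 1.44 times the SFMA level (1.41 to 1.47). Map4, the widely expressed relative, was at 22.9 FPKM in SFMA and between 34.5 and 36.3 in the other 3 libraries. The FPKM ratio of Map2 to Mapt was 0.240 (0.231 to 0.249), 0.316 (0.308 to 0.324), 0.386 (0.377 to 0.396) and 0.661 (0.645 to 0.677), so the intervals of the 4 libraries did not overlap. Map2 and Map4 were nearly level in SFMA, at an FPKM ratio of 1.08 (1.03 to 1.13), and stood at 2.70 in NL-SFMA (2.61 to 2.79). These ratios lie within a library and do not depend on how libraries are scaled to each other. Counts are per gene, so splice forms of tau or MAP2 are not separated.

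Dcx, the doublecortin gene, was at 68.3, 140, 161 and 266 FPKM, each library above the one before. The CPM fold of NL-SFMA over SFMA was 3.89 (3.81 to 3.98). Dclk1, which encodes a protein with doublecortin domains and a kinase domain, was at 24.7, 48.6, 45.2 and 67.2 FPKM, with N-SFMA slightly above L-SFMA (CPM fold 1.08, 1.04 to 1.11). The FPKM ratio of Dcx to Dclk1 was 2.76 (2.67 to 2.86), 2.89 (2.82 to 2.96), 3.56 (3.48 to 3.65) and 3.96 (3.88 to 4.04). Map2 kept a near fixed ratio to Dcx in all 4 libraries, between 0.362 (0.349 to 0.376, SFMA) and 0.402 (0.391 to 0.413, N-SFMA).

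Macf1, the spectraplakin, had the lowest FPKM of the group in SFMA, and over the 4 libraries it was at 2.62, 7.91, 11.1 and 15.2 FPKM. The CPM fold of NL-SFMA over SFMA was 5.81 (5.49 to 6.14). Its gene model of 33038 bases is the longest of the group. Camsap2, the minus-end binder, was at 9.96, 17.0, 20.9 and 28.7 FPKM, again each above the one before. Map6 was at 14.4, 22.0, 22.9 and 17.0 FPKM. NL-SFMA was below L-SFMA for Map6, by a CPM fold of 1.34 (1.23 to 1.47), and the interval of L-SFMA against N-SFMA held 1 (1.04, 0.963 to 1.13). Its model of 3511 bases is the shortest of the group.

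The make-up of the group moved with these levels. Mapt held 30.8%, 26.1%, 22.1% and 14.6% of the summed FPKM of the 10 genes. Map1b held 16.5%, 23.9%, 25.6% and 31.7%, and Dcx 20.4%, 20.5%, 22.5% and 26.2%. The FPKM of Map1b was 0.537 times that of Mapt in SFMA (0.525 to 0.550) and 2.17 times in NL-SFMA (2.14 to 2.21). Map6 was at 4.31% in SFMA and 1.68% in NL-SFMA, and Map4 at 6.85% and 3.58%.

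**Figure D2:**
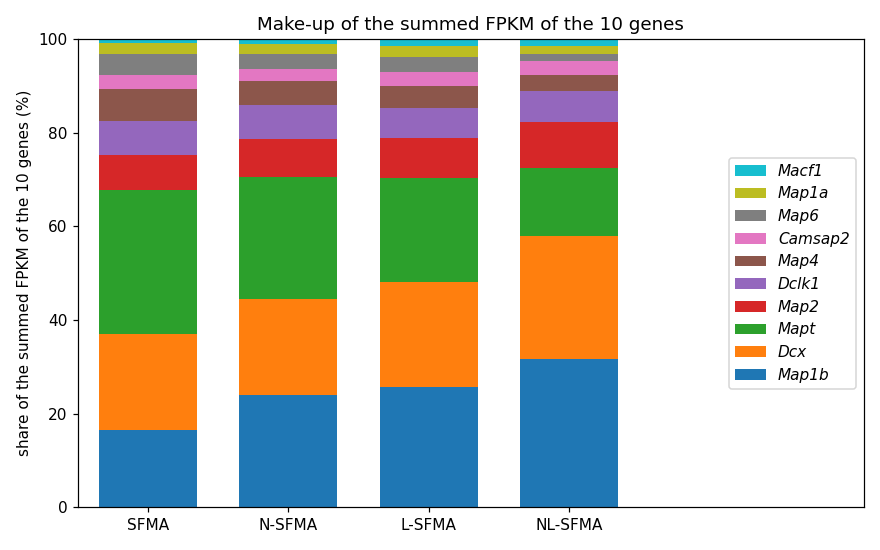
Share of each gene in the summed FPKM of the 10 genes (percent, stacked to 100) in each library. The Mapt segment goes from 30.8% in SFMA to 14.6% in NL-SFMA, while the Map1b segment goes from 16.5% to 31.7%.

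The single-letter hydrogels set N alone or L alone beside SFMA, with 1 library each. In N-SFMA, 4 of the 10 genes (Map1b, Macf1, Map2 and Dcx) stood at least 2-fold above SFMA and 0 below, where 0.855% of the 12394 genes tested were 2-fold higher and 2.65% lower. The median log2 difference was 0.87 over the group and -0.02 over all genes tested. In L-SFMA the same 4 genes stood at least 2-fold above SFMA and 0 below, with 3.32% of all genes 2-fold higher and 3.04% lower. The medians were 0.93 for the group and 0.05 for all genes. In NL-SFMA against SFMA, which holds both letters, 6 of 10 were 2-fold higher and 0 lower, with 10.1% of all genes higher and 15.1% lower, and the medians were 1.42 and -0.10. These 3 comparisons share the SFMA library.

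Among the libraries with a letter, none of the 10 genes was 2-fold apart. For L-SFMA against N-SFMA the log2 differences ran from -0.18 (Mapt) to 0.44 (Macf1), and 6 of the 10 signs (Map1a, Map1b, Map2, Map4, Map6 and Dcx) turn under another scaling or with the length trend removed, with 0.379% of all genes 2-fold higher and 0.250% lower. NL-SFMA against N-SFMA ran from -0.35 (Map6) to 0.97 (Map1b), where 2.15% of genes were 2-fold higher and 5.58% lower, and Map1b was past 2-fold (1 gene) with scaling by TMM, by median-of-ratios or without mitochondrially encoded genes, where 2.57%, 2.79% and 2.77% of all genes were 2-fold higher. NL-SFMA against L-SFMA ran from -0.41 (Map6) to 0.81 (Map1b), with 0.871% of genes 2-fold higher and 6.87% lower. Dcx (0.72) and Map2 (0.67) were the next highest there. The Mapt difference for NL-SFMA against L-SFMA was small (-0.09), and with TMM scaling it was 0.03. At 1.5-fold, 9 of the 10 genes were above SFMA in N-SFMA (7.24% of all genes), 9 in L-SFMA (14.8%) and 8 in NL-SFMA (21.6%). At that fold 5 were higher in NL-SFMA than in N-SFMA (12.5% of all genes) and 3 higher than in L-SFMA (7.23%). With a pseudocount of 5 FPKM, 2 genes (Map1b and Map2) were 2-fold above SFMA in N-SFMA, and 0.121% of all genes.

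**Figure D3:**
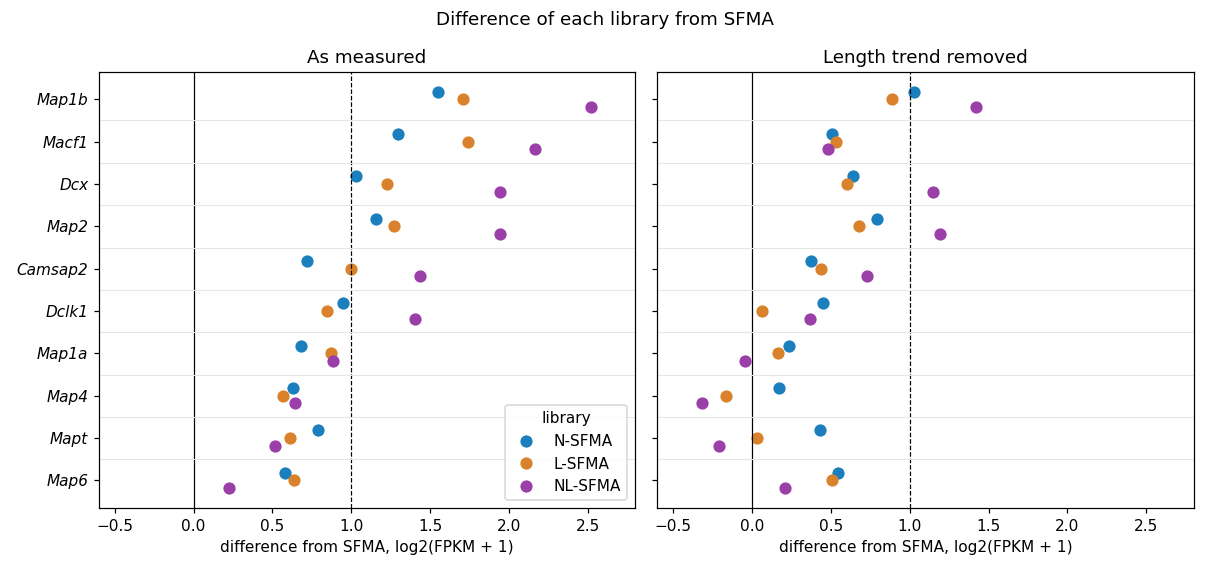
Difference of N-SFMA, L-SFMA and NL-SFMA from SFMA on the log2(FPKM + 1) scale for each gene, as measured (left) and with the trend over gene model length removed (right); the dashed line is 2-fold and each point is 1 library against 1 library. As measured, all points are above 0 and NL-SFMA stands at 2.52 for Map1b and 0.23 for Map6; with the trend removed, Map1a (-0.04), Map4 (-0.32) and Mapt (-0.21) are below 0 in NL-SFMA and Map4 (-0.16) in L-SFMA.

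Long gene models were higher, as a class, in the 3 other libraries than in SFMA, and 9 of the 10 genes have models of at least 7828 bases, against a median of 2969 over the genes tested. In NL-SFMA, the 650 tested genes over 8 kb had a median log2 difference of 0.92 from SFMA and 45.5% of them were 2-fold higher. The medians were 0.43 in N-SFMA and 0.68 in L-SFMA, with 6.31% and 24.5% of them 2-fold higher. A curve fitted to all genes tested (lowess on log2 model length) gave the difference common to a length. With that curve subtracted, Map1b (1.42), Map2 (1.19) and Dcx (1.15) were 2-fold higher in NL-SFMA, where 8.07% of all genes were. In N-SFMA only Map1b was (1.03), with 1.07% of all genes, and in L-SFMA 0 of 10 were, with 2.31% of all genes. Macf1 was at 2.16 in NL-SFMA, of which the curve gave 1.68 at its length and left 0.48. The length of Macf1 is at percentile 99.98 of the genes tested, so the curve there rests mostly on shorter genes. Dclk1 was at 1.41, of which 0.37 was left.

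Genes of like length in the group had unlike differences from SFMA, and what lies behind this was not tested. Camsap2 (7828 bases), Mapt (8083), Map2 (8285) and Dcx (8857) have models of similar length, for which the curve gave between 0.71 and 0.80 in NL-SFMA. Their measured log2 differences from SFMA were 1.44, 0.52, 1.94 and 1.95 in that order. With the curve subtracted they were at percentiles 85.8, 37.5, 94.8 and 94.3 of the genes tested. Of all genes tested, 8.07% were then 2-fold higher and 7.42% lower. Map1a (10537 bases) and Map4 (11064) were at 0.88 and 0.64, below the curve, and the longer Dclk1 (12441) and Map1b (13598) were at 1.41 and 2.52, above it. Map6 has a model near the median length, with a curve value of 0.02 in NL-SFMA, and its difference there was 0.23.

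**Figure D4:**
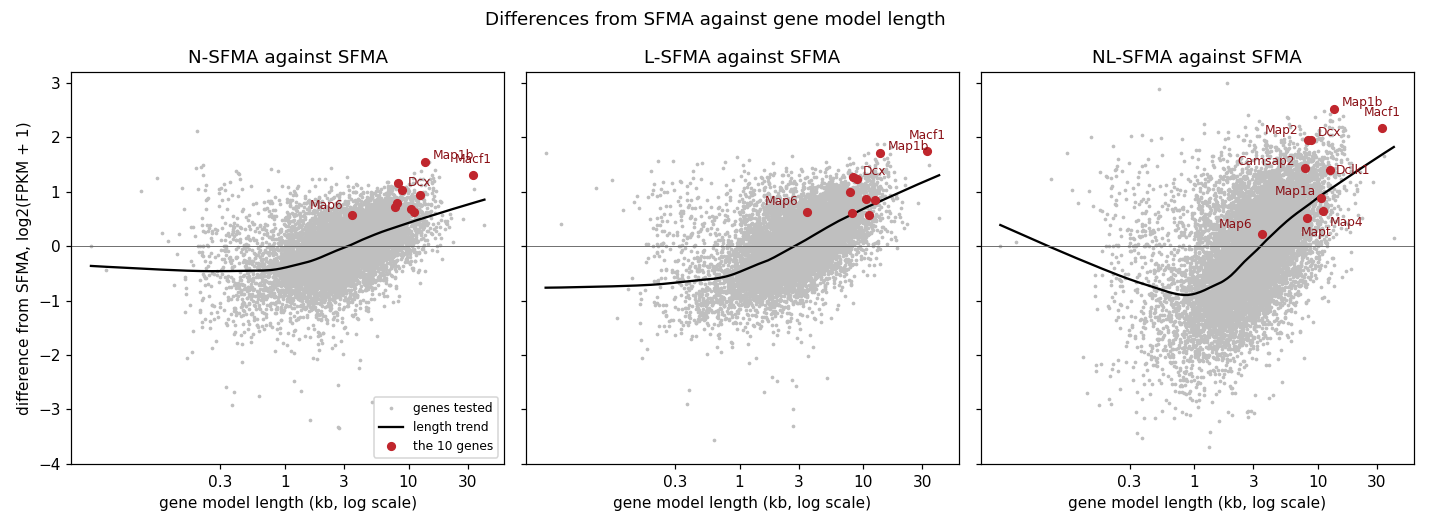
Log2(FPKM + 1) difference from SFMA of every gene tested (grey) against gene model length in kb (log scale), 1 panel per library, with the lowess curve in black and the 10 genes in red, all of them named in the NL-SFMA panel and 4 in the other panels. In NL-SFMA Map1b (2.52), Dcx (1.95) and Map2 (1.94) lie above the curve, and Mapt (0.52) and Map4 (0.64) below it.

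Scaling to the 12 neuron markers in place of all reads placed the median of all genes at -0.36 for N-SFMA, -0.22 for L-SFMA and -0.45 with both letters, relative to SFMA. The same 6 genes were then at least 2-fold above SFMA in NL-SFMA (4.32% of all genes), where Map6 was at -0.16 and the other 9 above 0. In N-SFMA 1 gene was then 2-fold higher (Map1b, with 0.169% of all genes) and in L-SFMA 2 were (Map1b and Macf1, with 1.06%). This scaling left the length trend in place. The markers have models of 1481 to 4289 bases, and 9 of the 10 genes at least 7828. With the trend removed in place of this scaling, the median difference from SFMA with both letters was 0.61 (markers) and 0.42 (group). At least 2-fold higher were then 3 of 12 markers and 3 of the 10 genes. The medians were 0.45 and 0.48 with N alone, and 0.26 and 0.47 with L alone.

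If the folds of N-SFMA and L-SFMA over SFMA had multiplied, NL-SFMA would have stood at 543 FPKM for Map1b, 331 for Dcx, 139 for Map2 and 274 for Mapt. The measured values were 322, 266, 98.0 and 148 FPKM. All 10 genes were below the product, and the share of all genes below theirs was not computed. The length curve described above also fell short of its single-letter values added together. At the length of Dcx it gave 0.39 with N, 0.63 with L and 0.80 with both letters. For Camsap2 these values were 0.34, 0.56 and 0.71, and for Macf1 0.79, 1.21 and 1.68. How much of each gene's departure follows the curve was not tested. The log2 ratio of measured to product was taken on FPKM without a pseudocount. It was nearest 0 for Camsap2 at -0.32 (95% counting interval -0.44 to -0.19) and Dcx at -0.32 (-0.36 to -0.27). The farthest were Macf1 at -1.14 (-1.24 to -1.04) and Map6 at -1.04 (-1.21 to -0.86). On the log2(FPKM + 1) scale the farthest departures were those of Map6 (-0.984), Mapt (-0.882) and Macf1 (-0.875).

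An additive fit of N and L over all 4 libraries is the one test across genes this design allows. It takes each letter to mean the same in both names that hold it, and its single residual degree of freedom is the departure from additivity just described, not a spread between cultures. With edgeR's quasi-likelihood test (Benjamini-Hochberg adjusted p under 0.05 over 13737 genes), 5 of the 10 genes rose with N, where 2.90% of all genes rose: Map1b by 1.27 (SE 0.31, adjusted p = 0.00329), Macf1 by 1.10 (SE 0.27, adjusted p = 0.00376), Map2 by 1.01 (SE 0.27, adjusted p = 0.0103), Dcx by 0.96 (SE 0.30, adjusted p = 0.0268) and Dclk1 by 0.85 (SE 0.28, adjusted p = 0.0388) on the log2 scale. With L, 5 of the 10 rose, where 7.37% of all genes rose: Macf1 by 1.50 (adjusted p = 1.15e-05), Map1b by 1.33 (adjusted p = 0.000813), Map2 by 1.03 (adjusted p = 0.00412), Dcx by 1.06 (adjusted p = 0.00632) and Camsap2 by 0.89 (adjusted p = 0.00811). Each of these genes was higher with the letter in both pairs of libraries, except that Macf1 in NL-SFMA against L-SFMA was at -0.0060 with the length trend removed. For N, limma and median-of-ratios scaling each called 3 of the 10, with 1.26% and 1.43% of all genes higher. Mapt had an N effect of 0.43 (SE 0.29, adjusted p = 0.394 by edgeR) and an L effect of 0.16 (SE 0.29, adjusted p = 0.770). For Map6 the effects were 0.17 and 0.14 (SE 0.26 each). With the length trend entered as an offset, edgeR called 0 of the 10 genes for N or L (3 and 0 at an unadjusted p under 0.05, as were 14.3% and 15.3% of all genes), with 0.204% and 1.30% of all genes higher and 0.226% and 0.844% lower. With it, the effects of Map1b were 0.71 for N (SE 0.26, adjusted p = 0.218) and 0.52 for L (SE 0.26, adjusted p = 0.354).

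**Figure D5:**
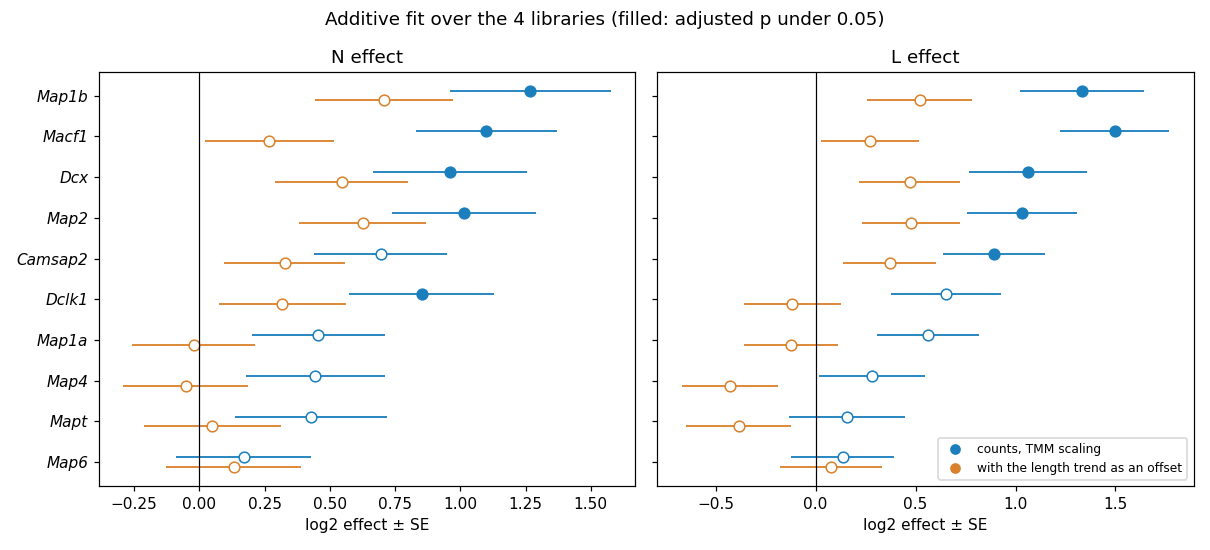
Log2 effect of N (left) and of L (right) for each gene from the additive fit over the 4 libraries, with bars of 1 SE, scaled by TMM (blue) or with the length trend as an offset (orange); filled points have an adjusted p under 0.05. Map1b lies at 1.27 and 1.33 without the offset and at 0.71 and 0.52 with it, where no point is filled, and Map1a and Map4 (both letters) and Mapt and Dclk1 (L) are then below 0.

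Genes whose 3 differences from SFMA were nearest to those of a group member were sought among 7258 genes with at least 5 FPKM in every library, by root mean square distance on the log2 scale. The nearest to Map1b were Dync1h1 (distance 0.12), Nbea (0.17), Ank2 (0.22), Usp9x (0.22) and Huwe1 (0.33), with models of 12429 to 16366 bases. Dcx had Ids (0.03), Apc (0.04), Sema3c (0.04), Atrx (0.05) and Tnks (0.07) as its nearest, with models from 3666 to 10703 bases. For Mapt they were Clip3 (0.07), Pnma8b (0.07), Myo18a (0.07), Neurl4 (0.08) and the neurofilament gene Nefm (0.08). Nefm, the gene of the medium neurofilament chain, was at 0.82, 0.61 and 0.38 above SFMA in the other libraries, against 0.79, 0.61 and 0.52 for Mapt. Nefm is also 1 of the 12 neuron markers.

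Other genes that act on microtubules were followed in 7 lists, read for NL-SFMA against SFMA beside 10.1% of all genes 2-fold higher and 15.1% lower. With the length trend removed, these shares were 8.07% and 7.42%. Of 18 plus-end and lattice binding proteins tested, 8 were 2-fold higher and 0 lower, with a median of 0.65. Apc, a protein at growing plus ends and a regulator of Wnt signalling, was at 12.4 FPKM in SFMA and 50.3 in NL-SFMA, and the neuron navigator Nav1 at 4.66 and 18.2. Tacc3, a spindle protein of dividing cells, was lower, at 34.3 and 18.3 FPKM. With the length trend removed, 1 of these 18 (Apc, 1.09) was 2-fold higher.

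Of 14 other MAP family members tested, 1 was 2-fold higher and 2 lower (Map1lc3a and Tppp3), with a median of -0.11. Once the length trend was removed, 1 was 2-fold higher (Map9) and 0 were lower. Map9, a protein that stabilises microtubules, was at 16.2, 32.6, 31.5 and 56.8 FPKM, from a model of 2949 bases, and its difference in NL-SFMA was 1.75 and 1.90 with the length trend removed. Map1lc3a, the light chain relative used in autophagy, was at 343 FPKM in SFMA and 96.4 in NL-SFMA, a log2 difference of -1.82 and, with the trend removed, -0.94. Tppp3, named for its count and not by rule, was at 2.13 and 0.285 FPKM, on 37 and 4 reads, and at -0.40 with the trend removed. Camsap1, the relative of Camsap2, was at 25.4, 43.0, 49.7 and 48.0 FPKM, and the difference of its pattern from that of Camsap2 was not tested.

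Among 7 proteins that link microtubules and actin, 1 was 2-fold higher and 0 lower. It was Dst, the second spectraplakin, at 1.31 FPKM in SFMA and 6.25 in NL-SFMA. Its model has 34148 bases, and its log2 difference of 1.65 was -0.05 with the trend removed. At this length, too, the curve rests mostly on shorter genes. With the trend removed, 0 of these 7 were 2-fold higher and 1 was lower (Gas2l1, -1.52). The drebrin gene Dbn1 was at 504, 510, 509 and 290 FPKM. Of 11 stathmins, severing and depolymerising proteins, 1 was 2-fold higher (the severing gene Spast, 21.3 FPKM in SFMA and 52.0 in NL-SFMA) and 2 lower. The lower pair were the stathmins Stmn3 (66.1 and 30.8 FPKM) and Stmn4 (296 and 144), of a family that binds free tubulin. With the length trend removed, Spast was at 0.71, Stmn3 at -1.55 and Stmn4 at -0.30, and of the 11 genes 0 were 2-fold higher and 1 lower.

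Of 18 kinases and phosphatases that act on microtubule-associated proteins, 5 were 2-fold higher and 0 lower (Ttbk2, Mapk8, Gsk3b, Mapk9 and Mapk10, the last 3 named for the count), and 3 were 2-fold higher with the length trend removed (Ttbk2, Gsk3b and Mapk10). Ttbk2, the tau tubulin kinase, was at 3.29 FPKM in SFMA and 12.9 in NL-SFMA, and the JNK gene Mapk8 at 28.5 and 77.4. The tau kinase genes Cdk5 (39.4 and 20.2 FPKM) and Gsk3a (66.1 and 34.5) were lower by less than 2-fold. Of 6 genes of the Lis1 complex, 1 was 2-fold higher and 1 lower. Pafah1b1, which encodes Lis1, a dynein regulator, was at 54.6 FPKM in SFMA and 123 in NL-SFMA, and Pafah1b3 at 275 and 82.8, with 0.92 and -0.83 once the trend was removed. Of the 6 genes, 0 were then 2-fold higher and 1 was lower (Ndel1, -1.10). Of 16 tubulin modifying enzymes, 1 was 2-fold higher and 2 lower. Agtpbp1, which trims glutamate chains from tubulin, was at 23.0 FPKM in SFMA and 58.3 in NL-SFMA, and Tpgs1, a subunit of a polyglutamylase, at 65.4 and 14.8. Svbp, the partner of the vasohibin carboxypeptidases, was at 85.0 and 30.8 FPKM, and its log2 difference of -1.44 was -0.55 with the trend removed. Of the 16 enzymes, 1 was then 2-fold higher (Agtpbp1, 1.02) and 3 were lower (Tpgs1 at -1.37, Sirt2 at -1.34 and Ttll11 at -1.02).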

How the data were processed

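RNA from rat cortical cells on 4 hydrogels was measured by poly(A) RNA sequencing, with 1.5 µg of RNA per library and 1 library per hydrogel. For each of 18755 genes the authors deposited raw counts and FPKM, per the file headers. HISAT2, with no version, and HTSeq 0.13.5 are named in the submitters' processing notes, which also list the builds mRatBN7.2 and GRCh38 without a role. The sources used here give no strand setting and no filter. Gene model lengths were recovered from both deposited columns, count and FPKM, and were whole numbers to within 1e-05 bases.

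The genes and lists were chosen with earlier results of these data known. Differences are log2(FPKM + 1), over the 12394 genes that reached 1 FPKM in any library, which understates ratios of low genes; called means at least 2-fold. All 10 genes passed this filter. Single folds are CPM ratios with exact 95% intervals conditional on both counts; intervals of other ratios within a library were made the same way, and those of departures from the product from Poisson variances. They cover counting error only, as reads without molecular identifiers can be PCR copies. The length trend is a lowess with a span of 0.3 (statsmodels 0.14.6). The additive fit used edgeR 4.0.16 (TMM, filterByExpr), with DESeq2 1.42.0 and limma 3.58.1 as alternatives; SE is the effect over the root of F. Named list genes were up to 2 each way per list with the largest NL-SFMA difference, at least 5 FPKM in the higher library and 1.5-fold, and for Map1b, Dcx and Mapt the 5 nearest genes. Alternatives were other pseudocounts, filters and scalings, a 1.5-fold rule and removal of the length trend. No genome coordinates of the deposited data are reported.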

Additional observations from a re-analysis of the deposited data

Results flagged for a closer look

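Mapt and Map6 were above SFMA in each single-letter library, but the same letter went the other way when added to the other. For Map6, N-SFMA against SFMA gave a log2 difference of 0.58 and NL-SFMA against L-SFMA -0.41, and L-SFMA against SFMA gave 0.63 and NL-SFMA against N-SFMA -0.35. For Mapt, N without L gave 0.79 and N with L -0.093, and L without N gave 0.61 and L with N -0.27. Each counting interval excluded no difference, and the difference between the paired values was not tested, as there is 1 library per hydrogel. The Mapt value of -0.093 is 0.03 with TMM scaling and 0.07 with median-of-ratios scaling.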

How the results depend on the processing

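Without the length trend, the count of 2-fold genes against SFMA was 1 in place of 4 for N-SFMA, 0 in place of 4 for L-SFMA and 3 in place of 6 for NL-SFMA. Scaled to neuron markers it was 1 for N-SFMA and 2 for L-SFMA, and with a pseudocount of 5 FPKM it was 2 for N-SFMA. A 1.5-fold rule gave 9 genes for N-SFMA (7.24% of all genes higher), 9 for L-SFMA (14.8%) and 8 for NL-SFMA (21.6%) against SFMA, 5 (12.5%) for NL-SFMA against N-SFMA and 3 (7.23%) for NL-SFMA against L-SFMA. For NL-SFMA against N-SFMA, TMM, median-of-ratios and scaling without mitochondrially encoded genes each gave 1 gene in place of 0, with 2.57%, 2.79% and 2.77% of all genes. In the additive fit, N had 3 genes called with limma on log2(FPKM + 1) and 3 with median-of-ratios scaling in place of 5, and with the length offset N and L had 0 and 0. Under that offset the sign turned for the N effects of Map1a (-0.022) and Map4 (-0.052) and the L effects of Map1a (-0.12), Map4 (-0.43), Mapt (-0.38) and Dclk1 (-0.12), none of which had passed the threshold. Apart from the length offset, Map1b, Macf1 and Map2 passed for both letters under all 4 alternatives, with an adjusted p of 0.000442 to 0.0321 for N and 1.41e-05 to 0.0140 for L. Of 540 differences recomputed for single genes between libraries, 24 had the opposite sign, none of them 2-fold. Another pseudocount or filter could not turn a sign, so the 540 hold many values whose sign was fixed beforehand. Most of the 24 came with the length trend removed. What lies behind the length trend was not tested. No paired analysis was possible because each hydrogel has 1 library and the labels carry no replicate numbers, and no library could be left out of a comparison. Depth limits little here, as each gene had at least 848 reads in every library, but there are no replicate cultures.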
